A study of Mus musculus with 18 samples.

Results

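The genes examined were those of the renin-angiotensin system: renin (Ren1), angiotensinogen (Agt), angiotensin-converting enzyme (Ace) and the angiotensin II receptors of type 1 (Agtr1a) and type 2 (Agtr2). A probe set, the group of short probes that reports 1 transcript on the array, was taken as a member where the platform annotation paired it with one of these symbols alone. This gave 4 probe sets of 3 genes, out of 22626 non-control probe sets and 12393 genes with a probe set of their own. Agt was read by probe set 1423396_at, Agtr2 by 1415832_at, and Ace by both 1427034_at and 1451911_a_at, called here the brighter and the dimmer Ace probe set. Ren1 and Agtr1a had no probe set paired with their symbol alone and were not analysed here.

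The data were 18 Mouse430A_2 arrays of total RNA from whole kidney of C57BL/6 mice, in 6 groups of 3 described as biological replicates. Wild-type (WT) mice and mice lacking a tissue inhibitor of metalloproteinases, TIMP2-/- or TIMP3-/-, had either the right proximal ureter closed by a double ligature (unilateral ureteral obstruction, UUO) or sham surgery without the ligature, and 3 days later the kidney on that side was collected. The labels gave no sex, age or batch and no construct for the knockout alleles, and whole kidney mixes all renal cell types, so fewer cells of a type and less RNA per cell cannot be told apart in any value that follows. The comparisons ask how obstruction changed these genes in each genotype and whether loss of either inhibitor altered that change.

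In this system renin cuts angiotensinogen to angiotensin I, and the converting enzyme trims angiotensin I to angiotensin II, which raises blood pressure, sodium retention and fibrosis mainly through the type 1 receptor. The type 2 receptor is abundant in the fetal kidney, scarce in the adult, and often opposes the type 1 receptor. The proximal tubule makes angiotensinogen and carries the converting enzyme on its brush border, while the liver is the main source of circulating angiotensinogen and endothelium is the other main site of the converting enzyme.

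The arrays matched their labels at the deleted genes. Timp3 had a mean intensity of 49.22 ± 10.18 (SD, n = 3) in TIMP3-/- sham and 36.94 ± 3.103 in TIMP3-/- UUO kidneys, against 7500 ± 1436 in WT sham. Timp2 was lower in the TIMP2-/- groups but kept a signal, at 639.8 ± 60.1 in sham and 823.9 ± 77.79 in UUO, against 1179 ± 263.4 and 4138 ± 586.8 in the WT groups. Kidney identity was plain: none of the 10 measured proximal tubule markers and none of the 7 loop, distal tubule and collecting duct markers in WT sham arrays fell below the array's 25th percentile of intensity, which lay between 56.8 and 64.2. Array WT UUO 2 stood apart, with an Alb (albumin) intensity of 28106 against 72.66 to 254 on the other WT UUO arrays. This array, WT sham 3 and TIMP3-/- UUO 2 are the 3 arrays in doubt. Alb does not mark WT sham 3 (276.8) or TIMP3-/- UUO 2 (53.96), and the reason for doubting them is not stated here. Array TIMP2-/- UUO 2, with Alb of 933.2 against 132.8 and 198.1 in its group, is not among the 3. Where leaving out the 3 arrays in doubt changes a member's call below, both values are given. For the wider gene lists the changed counts are given, and the named genes whose calls changed are not all identified.

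The RefSeq promoters of the 2 measured, well-expressed genes are shown because Ace carries the clearest change described below and RefSeq lists 2 start sites for it. Each runs 5′ to 3′ on the gene's own strand, from 250 bases before to 50 bases after the start, in build GRCm38.p6, with TATAA (the TATA box core) and GGGCGG (the core bound by SP-type factors) in capitals. Ace lies on the plus strand of chromosome 11, with windows chr11:105967698-105967997 for the upstream start and chr11:105974939-105975238 for the internal start, and Agt on the minus strand of chromosome 8, in window chr8:124569657-124569956.
Ace upstream start: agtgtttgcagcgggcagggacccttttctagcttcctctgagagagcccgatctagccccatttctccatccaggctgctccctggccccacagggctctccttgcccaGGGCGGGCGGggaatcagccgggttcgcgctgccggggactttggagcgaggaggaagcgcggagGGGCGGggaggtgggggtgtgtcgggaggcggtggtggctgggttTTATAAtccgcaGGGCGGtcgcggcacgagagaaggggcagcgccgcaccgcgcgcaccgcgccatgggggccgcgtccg
Ace internal start: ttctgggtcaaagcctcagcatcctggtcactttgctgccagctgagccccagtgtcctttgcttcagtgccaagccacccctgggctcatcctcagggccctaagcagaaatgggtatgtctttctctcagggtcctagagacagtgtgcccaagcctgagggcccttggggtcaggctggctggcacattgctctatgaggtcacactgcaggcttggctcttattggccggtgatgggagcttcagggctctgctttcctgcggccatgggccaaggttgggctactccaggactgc
Agt: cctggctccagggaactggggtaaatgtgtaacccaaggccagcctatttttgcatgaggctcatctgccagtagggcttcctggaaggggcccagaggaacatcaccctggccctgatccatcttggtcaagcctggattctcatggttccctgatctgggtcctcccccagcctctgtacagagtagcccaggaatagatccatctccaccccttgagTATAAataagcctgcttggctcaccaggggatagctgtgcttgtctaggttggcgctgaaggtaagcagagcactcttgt
The upstream Ace window holds GGGCGG at 4 positions, whose first bases lie at -140, -136, -75 and -18 from the start; the copies at -140 and -136 overlap. It also holds TATAA on both strands, at -30 and -29, in 2 overlapping matches. The internal Ace window holds neither motif, and the Agt window holds TATAA at -30. Searched on both strands, TATAA is in 24.9% of the 32851 promoters in the table and GGGCGG in 35.7%, so neither is rare, and a match is not a bound site. Where the Ace probe sets lie relative to these starts was not given in the sources used here.

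**Figure D1:**
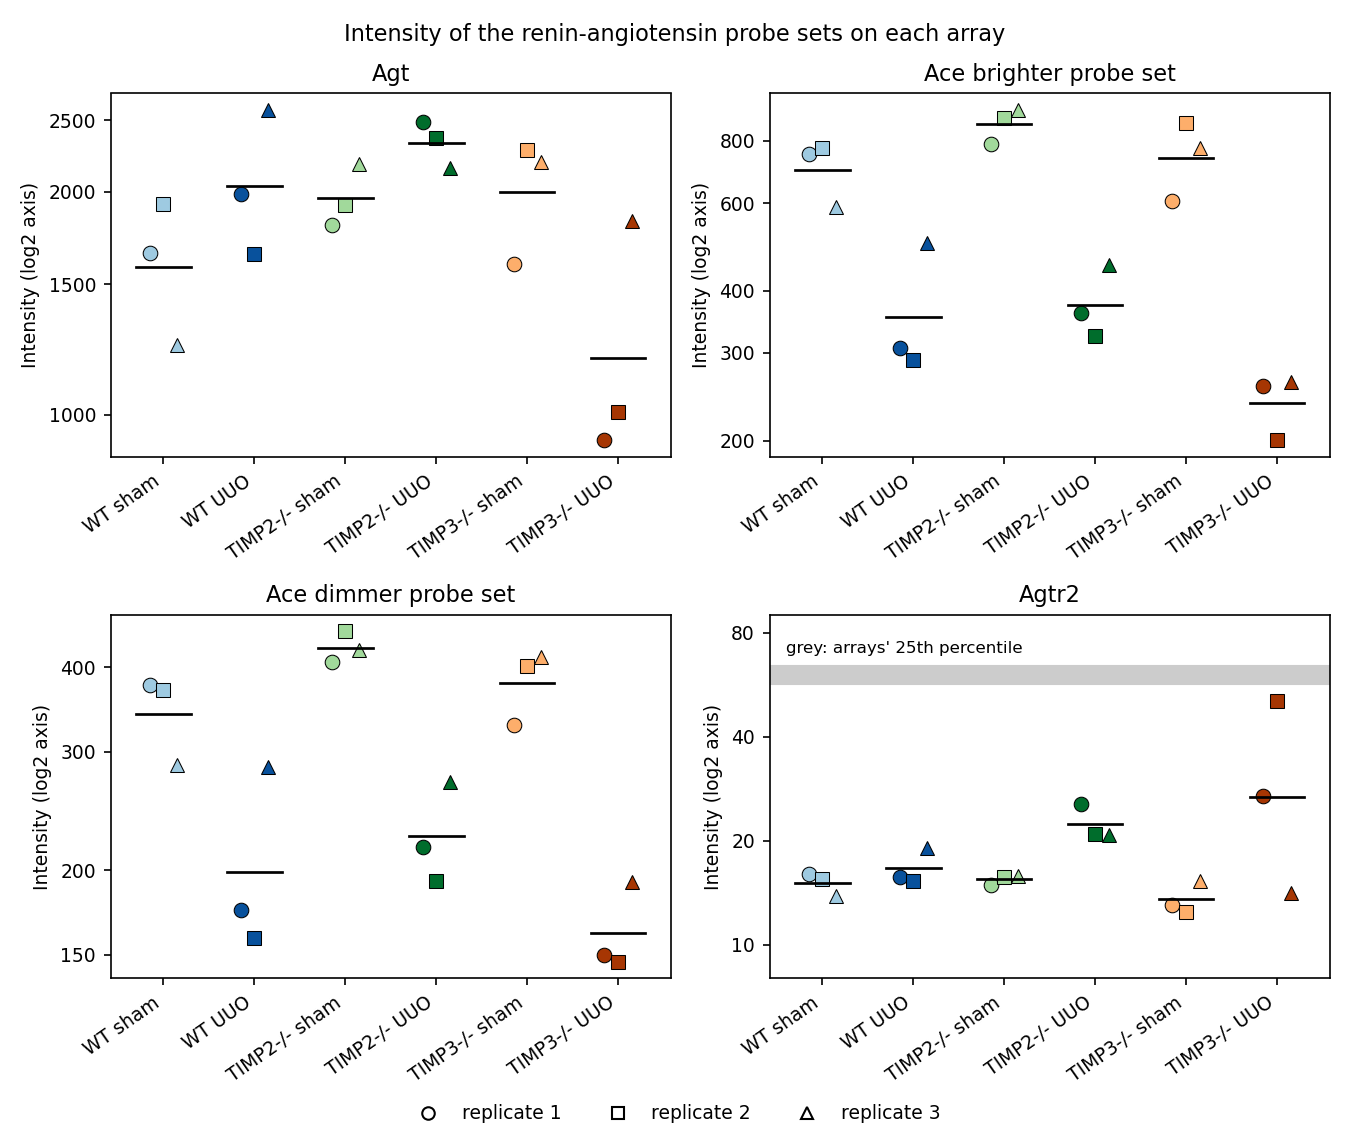
Intensity of each member probe set on all 18 arrays, on log2 axes, by group; symbols are replicates and the line is the group's mean on the log2 scale. Ace lies lower after UUO than after sham in every genotype, Agt reaches its lowest values in TIMP3-/- UUO kidneys, and every Agtr2 value lies below the grey band of the arrays' 25th percentiles.

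Agt, the substrate of the cascade, was bright in every kidney. In WT mice its intensities were 1652, 1929 and 1244 after sham and 1990, 1648 and 2581 after UUO. In TIMP2-/- mice they were 1805, 1919 and 2181 after sham and 2486, 2363 and 2158 after UUO. Both genotypes' obstructed arrays overlapped their sham arrays, with the obstructed mean the higher of the pair. In TIMP3-/- mice the sham arrays read 1601, 2278 and 2194 and the obstructed arrays 923.5, 1010 and 1826. The first 2 obstructed TIMP3-/- arrays were the lowest of all 18, and the third fell within the sham range. The group means ran, from the highest, TIMP2-/- UUO, WT UUO, TIMP3-/- sham, TIMP2-/- sham, WT sham and TIMP3-/- UUO, and every neighbouring pair in that order overlapped.

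Obstruction changed Agt in TIMP3-/- kidneys by limma, a linear model over all 18 arrays whose p-values were adjusted by Benjamini-Hochberg over all probe sets; a change was called at adjusted p under 0.05. The log2 change was -0.74 ± 0.24 (SE; 95% interval -1.26 to -0.23; adjusted p = 0.0157), or 1.67-fold lower after UUO. It was 0.36 ± 0.24 in WT (-0.15 to 0.88; adjusted p = 0.265) and 0.25 ± 0.24 in TIMP2-/- kidneys (-0.27 to 0.76; adjusted p = 0.43), neither called. The TIMP3-/- change was lost without TIMP3-/- sham 2 (adjusted p = 0.0605), sham 3 (0.0568), UUO 1 (0.0771) or UUO 2 (0.0662), and in a fit of those 6 arrays alone (0.0678).

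Angiotensinogen is also made by liver and fat, so markers of both were set beside it. The 18 measured of 20 hepatocyte markers, several of which the kidney also expresses, summed to between 36880 and 42760 in WT sham, 19750 and 157700 in WT UUO, 46240 and 49640 in TIMP2-/- sham, 28000 and 34020 in TIMP2-/- UUO, 40050 and 43770 in TIMP3-/- sham and 14020 and 14880 in TIMP3-/- UUO kidneys. In WT sham kidneys Cyp2e1 (mean 24380) and Ttr (mean 9401) made up most of the sum. Array WT UUO 2, with the highest sum, had the lowest Agt of the WT UUO arrays (1648). The 5 measured of 7 adipocyte markers summed to between 882.7 and 2225 in WT sham and 3068 and 15540 in WT UUO kidneys. The sums were between 1067 and 1874 in TIMP2-/- sham and 5190 and 6088 in TIMP2-/- UUO kidneys. In TIMP3-/- kidneys they were between 839.3 and 1455 after sham and 2443 and 18710 after UUO. On TIMP3-/- UUO arrays 1, 2 and 3 they were 17930, 18710 and 2443, beside Agt of 923.5, 1010 and 1826. As a description, r of Agt with the summed lists over the 9 UUO arrays was 0.35 for hepatocyte and -0.78 for adipocyte markers. It was -0.95 for fibroblast and 0.87 for proximal tubule markers. Over the 9 sham arrays these r were 0.69, -0.56, -0.23 and 0.64. No marker was listed at 0, and the part of any of these cell types in the Agt values was not tested.

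Ace, which makes angiotensin II and degrades bradykinin, was lower after obstruction in all 3 genotypes. On the brighter probe set WT kidneys read 752.6, 774.6 and 588.2 after sham and 307.5, 290.9 and 498 after UUO. TIMP2-/- kidneys read 789, 889.2 and 922.2 after sham and 361.7, 324 and 450.4 after UUO. TIMP3-/- kidneys read 604.8, 867.8 and 772.4 after sham and 257.6, 200.3 and 262.2 after UUO. In each genotype every obstructed array lay below every sham array, as for 28.6% of all probe sets in WT, 32.3% in TIMP2-/- and 38.9% in TIMP3-/- kidneys, and the TIMP3-/- UUO arrays were below all other arrays. By group mean the sham groups came first, in the order TIMP2-/-, TIMP3-/- and WT. TIMP3-/- sham overlapped both of the others, while TIMP2-/- and WT sham did not overlap each other. TIMP2-/- and WT UUO followed, which overlapped each other but not the sham groups. TIMP3-/- UUO came last and overlapped no other group.

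The fall in Ace passed the test in each genotype. The brighter probe set changed by -0.98 ± 0.21 in WT (SE; 95% interval -1.42 to -0.54; adjusted p = 0.00238), which is 1.97-fold lower. It changed by -1.21 ± 0.21 in TIMP2-/- (-1.65 to -0.76; adjusted p = 0.000732; 2.31-fold lower) and by -1.64 ± 0.21 in TIMP3-/- kidneys (-2.08 to -1.19; adjusted p = 1.82e-05; 3.11-fold lower). The share of all probe sets with a lower change was 4.06% in WT, 1.79% in TIMP2-/- and 3.11% in TIMP3-/- kidneys. For the dimmer Ace probe set it was 6.73%, 3.75% and 5.71%. Both thus lay among the more strongly lowered probe sets in each genotype.

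The dimmer Ace probe set gave the same direction with smaller changes. Its intensities were 376.5, 369.8 and 286.2 in WT sham and 174.5, 158.9 and 284.8 in WT UUO kidneys. TIMP2-/- kidneys read 407.6, 452.4 and 424.8 after sham and 216.9, 193.1 and 270.6 after UUO. TIMP3-/- kidneys read 329, 401.8 and 414.6 after sham and 149.9, 146.4 and 192.1 after UUO. No obstructed array overlapped the sham arrays of its genotype, although WT UUO 3 (284.8) and WT sham 3 (286.2) nearly met. The changes were -0.78 ± 0.20 in WT (adjusted p = 0.0093), -0.93 ± 0.20 in TIMP2-/- (adjusted p = 0.00364) and -1.23 ± 0.20 in TIMP3-/- kidneys (adjusted p = 0.000162). The WT call was lost without WT UUO 2 (-0.62; adjusted p = 0.0562) and in a fit of the 6 WT arrays alone (adjusted p = 0.0614), while the brighter probe set kept its call in every alternative. As a description, the Ace probe sets tracked each other across arrays, with r = 0.925 over the 9 sham and 0.93 over the 9 UUO arrays, which share animals and normalisation.

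Across both Ace probe sets and Agt and Agtr2, obstruction was called for 2 of 4 member probe sets in WT and 2 of 4 in TIMP2-/- kidneys, all Ace, and for 4 of 4 in TIMP3-/- kidneys. Over all probe sets the called share was 30.8% in WT, 35% in TIMP2-/- and 62.5% in TIMP3-/- kidneys, and the share called lower was 16.1%, 20.9% and 37.5%. A change by obstruction was thus common on these arrays, and with 4 probe sets of 3 genes the counts do not set the members apart from it. An exact permutation test of 3 against 3 arrays cannot give a two-sided p below 0.1, so the calls rest on the model fitted across all probe sets.

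**Figure D2:**
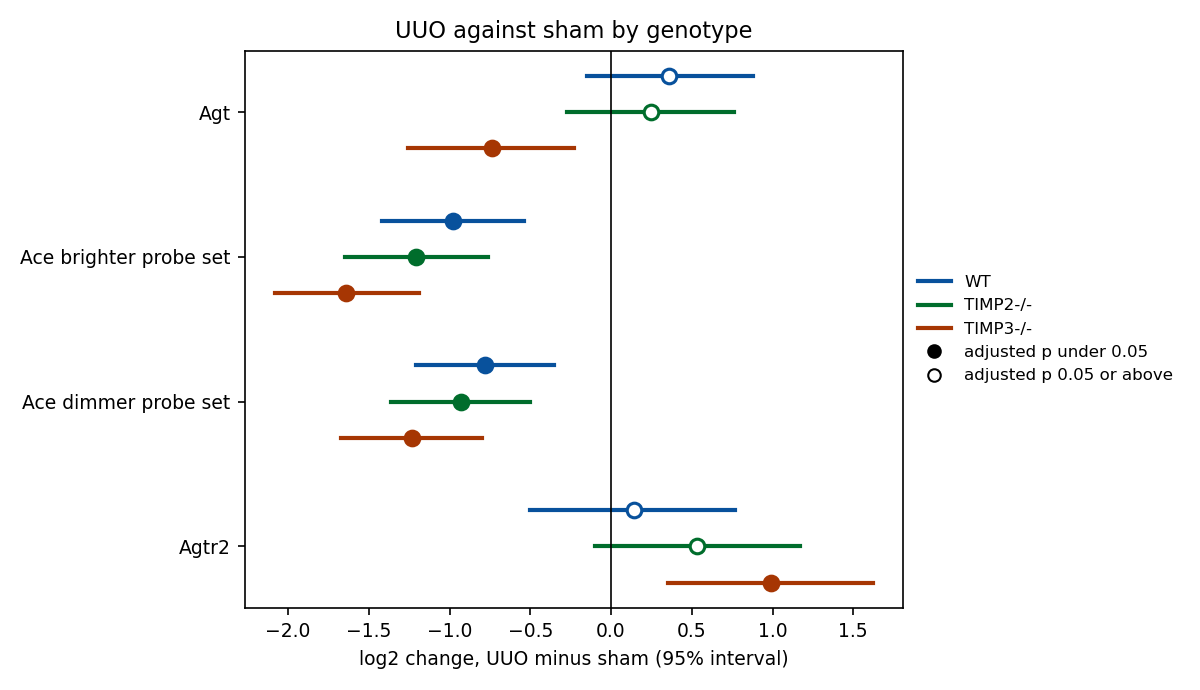
Log2 change in intensity, UUO minus sham, for each member probe set in each genotype, with its 95% interval from limma. The Ace intervals lie below 0 in all 3 genotypes, while those of Agt and Agtr2 exclude 0 in TIMP3-/- kidneys and include it in WT and TIMP2-/- kidneys.

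After UUO Ace was lower, and so were markers of the tubule cells known to carry it and of other tubule segments. All 10 measured of 11 proximal tubule markers were called lower after UUO in every genotype, with median log2 changes of -1.81 in WT, -1.27 in TIMP2-/- and -2.52 in TIMP3-/- kidneys. The 7 loop, distal tubule and collecting duct markers had medians of -1.72, -1.62 and -2.14, with 5, 4 and 6 called lower. Between WT and TIMP2-/- kidneys the order differed. The proximal median fell less in TIMP2-/- kidneys, while the brighter Ace probe set fell more (-1.21 against -0.98). The summed intensity of the proximal markers was 90410 to 107700 over the sham arrays. After UUO it was 20360 to 53050 in WT, 36120 to 56930 in TIMP2-/- and 15940 to 23970 in TIMP3-/- kidneys. Obstructed WT array 3, highest of its group for the proximal sum (53050), was also highest of its group for Ace (498) and Agt (2581), as TIMP3-/- UUO 3 was of its own (23970, 262.2 and 1826). TIMP2-/- UUO 3 was highest of its group for the sum (56930) and Ace (450.4) but lowest for Agt (2158). The 10 endothelial markers summed to 5847 to 7747 over the sham and 5862 to 9826 over the UUO arrays, with 4 higher and 1 lower in WT, none higher and 3 lower in TIMP2-/-, and 4 higher and 2 lower in TIMP3-/- kidneys. Without the 3 arrays in doubt the endothelial counts were 1 higher and 1 lower in WT, 2 and 3 in TIMP2-/- and 4 and 2 in TIMP3-/- kidneys, and 9 of 10 proximal markers were called lower in WT. Of the 7 loop, distal tubule and collecting duct markers, 5, 5 and 7 were then called lower in WT, TIMP2-/- and TIMP3-/- kidneys. The part of any of these cell types in the fall of Ace was not tested.

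**Figure D3:**
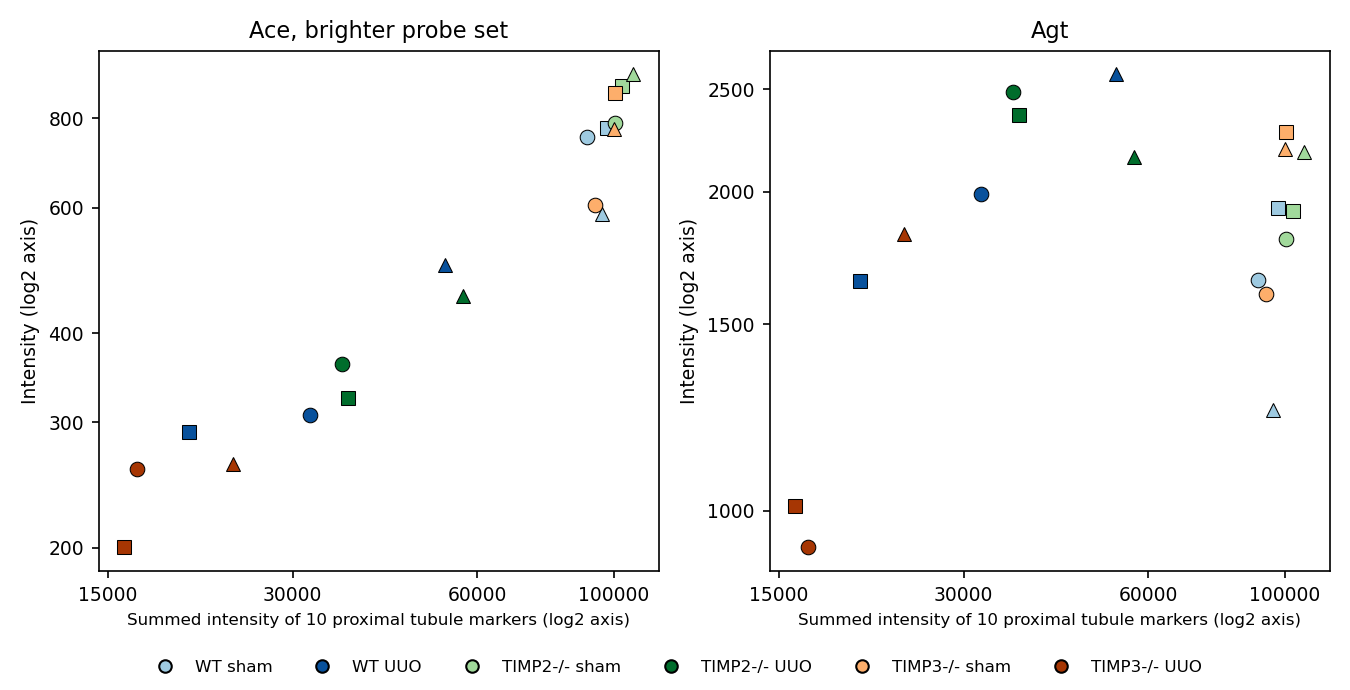
Intensity of the brighter Ace probe set and of Agt on each array against the summed intensity of 10 proximal tubule markers, all on log2 axes, coloured by group. Arrays with low proximal sums have low Ace, and the 2 arrays with the lowest sums have the lowest Agt, while Agt on the sham arrays ranges from 1244 to 2278 at similar sums.

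Agtr2, the type 2 receptor, was dim throughout: its intensity was below the array's 25th percentile on all 18 arrays, so its changes are close to the limit of what the probe set can show. Sham arrays read 16.04, 15.55 and 13.82 in WT, 14.92, 15.66 and 15.81 in TIMP2-/- and 13.05, 12.41 and 15.27 in TIMP3-/- kidneys. Obstructed arrays read 15.75, 15.28 and 19.11 in WT, 25.57, 20.98 and 20.79 in TIMP2-/- and 26.97, 50.56 and 14.09 in TIMP3-/- kidneys. All 3 obstructed TIMP2-/- arrays lay above the sham range, as for 20.9% of all probe sets, whereas the TIMP3-/- group spread from within it to the highest of all arrays. The ranges of TIMP2-/- UUO and WT UUO did not overlap, and the other neighbours in the order of means did. The log2 difference between TIMP2-/- UUO and WT UUO kidneys, 0.43, was not called. How many of all probe sets lacked overlap between these groups was not counted, so the gap does not set Agtr2 apart.

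The Agtr2 change was called in TIMP3-/- kidneys, at 0.99 ± 0.30 (SE; 95% interval 0.35 to 1.62; adjusted p = 0.0105). Without TIMP3-/- UUO 2 it was 0.53, with adjusted p = 0.05 after rounding and no longer called, and in a fit of the 6 TIMP3-/- arrays alone adjusted p was 0.088. In TIMP2-/- kidneys the change was 0.53 ± 0.30 (-0.1 to 1.17; adjusted p = 0.171), and in WT 0.14 ± 0.30 (adjusted p = 0.749). The TIMP2-/- change passed without the 3 arrays in doubt (adjusted p = 0.0437) and in a fit of its 6 arrays alone (adjusted p = 0.0144). The adrenal gland, which adjoins the kidney, also expresses this receptor. Of its 12 markers 11 were measured, and 4 to 7 of them lay below the 25th percentile on any array. They summed to 1180 to 1466 in TIMP3-/- sham and 821.8 to 1080 in TIMP3-/- UUO kidneys. The sums were 1121 to 1207 and 942.8 to 1079 in WT, and 1312 to 1446 and 942.8 to 1277 in TIMP2-/- kidneys. The 6 fibroblast markers summed to 3608 to 5035 in TIMP3-/- sham and 36050 to 91600 in TIMP3-/- UUO kidneys. The 10 smooth muscle and mesangial markers summed to 8876 to 10390 and 36880 to 60360 there. Both sums also rose in the other genotypes. In WT they went from 3247 to 3967 up to 28260 to 67420, and from 6138 to 7581 up to 22620 to 44150. In TIMP2-/- kidneys they went from 2369 to 3038 up to 24830 to 30030, and from 6613 to 9606 up to 21950 to 25780. The part of any of these cells, adrenal cells included, in the Agtr2 values was not tested.

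Obstructed kidneys of different genotypes were then compared. Between TIMP3-/- and TIMP2-/- kidneys Agt was lower without TIMP3, by a log2 difference of -0.97 ± 0.24 (SE; 95% interval -1.48 to -0.45; adjusted p = 0.0322), or 1.95-fold, with no overlap of arrays. It was 1 of 4 member probe sets called, where 7.06% of all probe sets were, and 4.65% lower. The brighter Ace probe set differed by -0.65 ± 0.21 (-1.1 to -0.21; adjusted p = 0.0634) and the dimmer by -0.48 ± 0.20 (-0.91 to -0.04; adjusted p = 0.134), neither called, although the arrays of both did not overlap, as for 18.7% of all probe sets in that direction. The Agt call was lost without TIMP2-/- UUO 1 (adjusted p = 0.0837), 2 (0.0697) or 3 (0.115), without TIMP3-/- UUO 1 (0.125) or 2 (0.145), without the 3 arrays in doubt (0.0711) and in a fit of the 6 arrays alone (0.143).

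Against obstructed WT kidneys no member was called in either knockout. In TIMP3-/- kidneys Agt differed by -0.77 ± 0.24 (95% interval -1.29 to -0.26; adjusted p = 0.126) and the brighter Ace probe set by -0.57 ± 0.21 (-1.01 to -0.13; adjusted p = 0.16), where 0.707% of all probe sets were called. The dimmer Ace probe set differed by -0.30 ± 0.20 (adjusted p = 0.397) and Agtr2 by 0.69 ± 0.30 (adjusted p = 0.213). The arrays of the brighter Ace probe set did not overlap, which held in that direction for 6.05% of all probe sets. The Agt difference passed without WT UUO 2 (-0.92; adjusted p = 0.0419) and without TIMP3-/- UUO 3 (-1.08; adjusted p = 0.0125), and Agtr2 passed without the latter (1.15; adjusted p = 0.0101). In TIMP2-/- kidneys the differences were 0.19 for Agt, 0.08 and 0.17 for the Ace probe sets and 0.43 for Agtr2, each with adjusted p = 1, where 0.0486% of all probe sets were called. The proximal markers differed in the same comparisons: 7 of 10 were called lower in obstructed TIMP3-/- than TIMP2-/- kidneys (median -1.22), and 1 of 10 was called lower than in WT (median -0.77). The last count rests on WT UUO 2: without it 9 of 10 were called lower than in WT (median -1.06), and without the 3 arrays in doubt 3 of 10 (median -0.93). Their part in the differences of Agt and Ace was not tested.

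**Figure D4:**
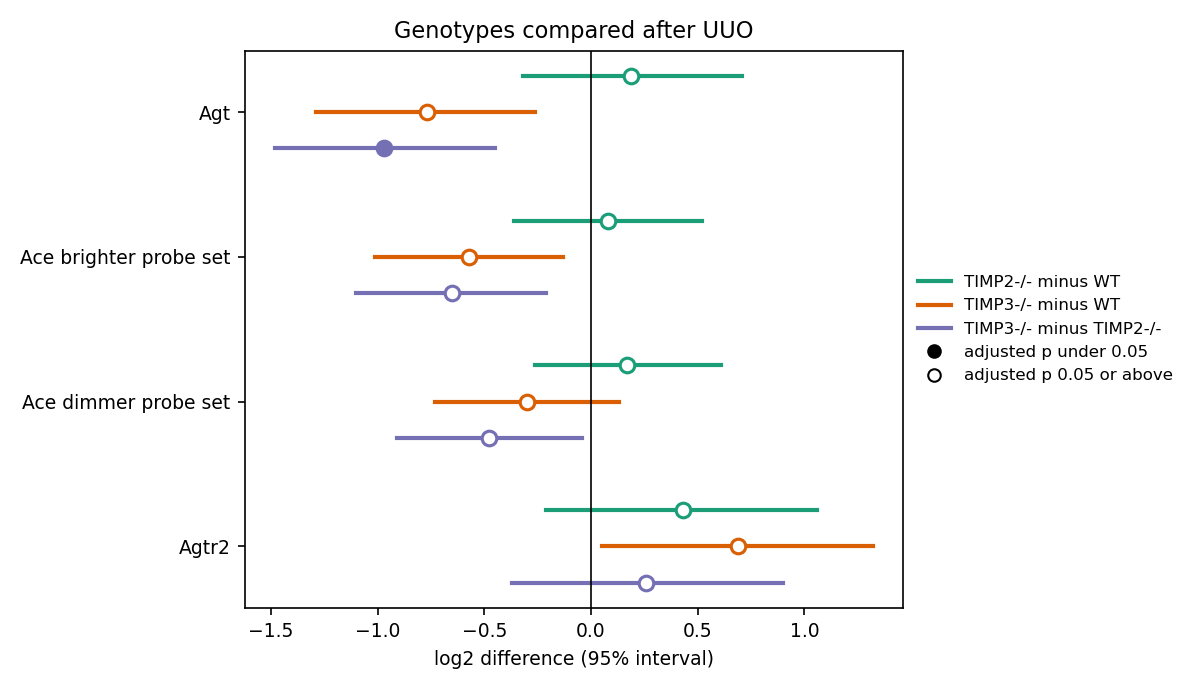
Log2 difference in intensity between genotypes after UUO for each member probe set, with its 95% interval from limma. For TIMP3-/- against TIMP2-/- kidneys the Agt difference of -0.97 is the only one called after adjustment, though other intervals also exclude 0.

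In sham kidneys the members were not called between any genotypes. TIMP2-/- exceeded WT by 0.31 for Agt, 0.31 for the brighter and 0.33 for the dimmer Ace probe set and 0.03 for Agtr2, with adjusted p of 0.401, 0.336, 0.298 and 0.952. Neither Ace probe set overlapped between TIMP2-/- and WT sham arrays, as was true of 41.5% of all probe sets, while 0.0221% were called. TIMP3-/- differed from WT by 0.34, 0.08, 0.15 and -0.16 in the same order (adjusted p = 0.567 to 0.869; 0.0442% of all probe sets called), and from TIMP2-/- by 0.03, -0.22, -0.17 and -0.19 (each adjusted p = 1; 0.0751% called).

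The difference in the response to obstruction was tested as an interaction. The Agt response in TIMP3-/- minus that in WT was -1.11 ± 0.34 (SE; 95% interval -1.84 to -0.38; adjusted p = 0.167), the brighter Ace response -0.65 ± 0.29 (-1.28 to -0.03; adjusted p = 0.182) and the Agtr2 response 0.85 ± 0.42 (adjusted p = 0.21). For TIMP3-/- minus TIMP2-/- the Agt value was -0.99 (adjusted p = 0.376) and the brighter Ace value -0.43 (adjusted p = 0.609). For TIMP2-/- minus WT they were -0.12 (adjusted p = 0.909) and -0.22 (adjusted p = 0.771). The adjusted test called none of the members and 0 of all probe sets in any of these, with 5852, 2266 and 2015 probe sets at unadjusted p under 0.05, so the Agt call in TIMP3-/- kidneys does not show that the response differed between genotypes.

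The wider pathway was read from lists of 57 further genes, of which 46 were measured, with 1 probe set per gene. After UUO 7 rose and 10 fell in WT, 7 rose and 13 fell in TIMP2-/- and 9 rose and 17 fell in TIMP3-/- kidneys. Over all genes 16.6%, 15.7% and 25.6% rose and 16%, 21.6% and 38.8% fell, or 32.6%, 37.2% and 64.4% in all, and the lists' median log2 changes of 0.10, -0.15 and -0.19 lie near the all-gene medians of -0.09, -0.12 and -0.19. Values below are log2 changes. Without the 3 arrays in doubt 6 rose and 3 fell in WT, where 2 of the falling genes were peptidases, 1 was a renin regulator and none was in the other lists; without WT UUO 2 alone 6 rose and 5 fell. The other genotypes then had 7 rising and 13 falling genes (TIMP2-/-) and 11 and 14 (TIMP3-/-). Within TIMP3-/- kidneys the peptidases then had 3 rising genes in place of 1, the renin regulators 2 falling in place of 5 and the genes that respond to angiotensin II 2 falling in place of 1.

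Of 15 measured peptidases that process angiotensins, 1 rose in each genotype, Ctsd, a lysosomal protease that can cut angiotensinogen (1.01 ± 0.14 in WT, adjusted p = 9.8e-05). Anpep, the brush border aminopeptidase that trims angiotensin III, fell in all 3 (-1.02 in WT, -1.38 in TIMP2-/- and -1.52 in TIMP3-/- kidneys). Klk1, tissue kallikrein that releases kinins, did too (-1.6, -1.96 and -2.23). Enpep, the aminopeptidase that turns angiotensin II into angiotensin III, fell in WT (-0.7) and TIMP3-/- kidneys (-0.47). Ctsg, a leukocyte protease that can release angiotensin II, was dim and fell in all 3 (-0.49, -0.37 and -1.0). Anpep, like Ace, is a brush border protein of the proximal tubule. Other peptidases of the list did not all follow it. Enpep was not called in TIMP2-/- kidneys, with means of 3680 after sham and 3590 after UUO. Mme was not called in any genotype. Its mean went from 817.8 to 381.1 in WT, from 299.2 to 337.8 in TIMP2-/- and from 247.1 to 642 in TIMP3-/- kidneys, where UUO arrays ranged from 168.1 to 1519.

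Among 6 measured receptors and partners none rose, and 1 fell in WT, 3 in TIMP2-/- and 4 in TIMP3-/- kidneys. Without the 3 arrays in doubt 4 fell in TIMP2-/- and 3 in TIMP3-/- kidneys. Agtrap, which binds the type 1 receptor and promotes its internalisation, fell in TIMP2-/- (-0.7) and TIMP3-/- kidneys (-1.19), and Kng1, the kininogen precursor of bradykinin, fell in TIMP3-/- kidneys (-1.03). Mas1, a receptor of the shorter angiotensin peptides, was dim, below the 25th percentile in each group, and fell in TIMP2-/- (-0.65) and TIMP3-/- kidneys (-0.56). Bdkrb2, a bradykinin receptor and also dim, fell in all 3 (-0.36 in WT, -0.39 in TIMP2-/- and -0.53 in TIMP3-/- kidneys). Atp6ap2, the (pro)renin receptor, was not called in any genotype, with TIMP3-/- adjusted p = 0.054. The 6 measured genes of the aldosterone arm held 1, 3 and 3 falling genes in WT, TIMP2-/- and TIMP3-/- kidneys; Scnn1a, a subunit of the epithelial sodium channel, fell in each (-0.81, -1.08 and -1.57). The WT calls of Bdkrb2 and Scnn1a were lost without WT UUO 2, after which no gene of either list was called lower in WT. Without the 3 arrays in doubt the aldosterone arm held 2 falling genes in TIMP2-/- and 3 in TIMP3-/- kidneys. Sgk1, a kinase that aldosterone induces, fell in TIMP2-/- kidneys (-0.76), Scnn1g, another channel subunit, in TIMP3-/- (-0.69), and Cyp11b2, aldosterone synthase, which was dim, in TIMP2-/- (-0.42) and TIMP3-/- kidneys (-0.53).

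The 12 measured regulators of renin release and renin cells moved both ways, with 2 rising and 3 falling in WT, 2 and 4 in TIMP2-/- and 4 and 5 in TIMP3-/- kidneys. Ptger4, a prostaglandin E2 receptor that drives renin release, rose by 1.66 ± 0.24, 1.98 ± 0.24 and 2.37 ± 0.24. Ptgs2, the inducible cyclooxygenase of the macula densa, rose in TIMP3-/- kidneys by 2.73 ± 0.84 (adjusted p = 0.0118), from between 13.23 and 16.28 in sham to between 25.47 and 201.5 after UUO; the obstructed WT arrays ranged from 25.95 to 395.5 without a call. Rbpj, the Notch pathway factor that maintains renin cells, rose in TIMP2-/- (0.84) and TIMP3-/- kidneys (1.26), and Ptger2, another prostaglandin E2 receptor, in WT (0.92) and TIMP3-/- kidneys (0.82). Vdr, the vitamin D receptor that represses renin, fell in each genotype (-1.1, -0.88 and -1.57), as did Nr1h3, a liver X receptor (-0.64, -0.93 and -1.61) and Npr1, a natriuretic peptide receptor (-0.56, -0.74 and -0.62). Nos1, the neuronal nitric oxide synthase of the macula densa, fell in TIMP3-/- kidneys (-0.49). Gja5, connexin 40, fell in TIMP2-/- kidneys (-0.47). It was also the remaining falling regulator in TIMP3-/- kidneys, with mean intensities of 49.21 after sham and 37.53 after UUO. Without WT UUO 2, 1 of the 12 measured regulators rose and 1 fell in WT. Ptger2, Npr1 and Gja5 were dim, near or below the 25th percentile. Their group means were 23.47 to 54.77, 32.26 to 57.17 and 37.53 to 57.62. Renin itself was not analysed here, so none of these values describes renin.

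Of 7 measured genes known to respond to angiotensin II, 4 rose in each genotype. These were Egr1, an immediate early factor (2.67, 2.86 and 2.39 in WT, TIMP2-/- and TIMP3-/-), Ccn2, a matricellular growth factor (1.9, 0.93 and 1.69), Edn1, the endothelin-1 precursor (1.69, 1.62 and 1.63), and Tgfb1 (1.43, 0.92 and 0.99). Nox4, an NADPH oxidase, fell in WT (-1.77 ± 0.62; adjusted p = 0.0407), a call lost without the 3 arrays in doubt, and Cyba, its partner subunit, fell in TIMP3-/- kidneys (-0.47). Between obstructed genotypes, 3 of the 46 genes were called for TIMP3-/- against TIMP2-/-, where 7.5% of all genes were (1.8% higher and 5.7% lower; against WT, where none of the 46 was called, 0.0242% were in TIMP2-/- and 0.557% in TIMP3-/-): Ccn2 was higher by 1.18 ± 0.27 (adjusted p = 0.0232), Nr1h3 differed by -0.96 ± 0.22 (0.023) and Ctsg by -0.50 ± 0.12 (0.0303). These counts rest on the arrays in doubt: without the 3 of them 1 gene was higher and none lower for TIMP3-/- against TIMP2-/-, and 2 were higher and 2 lower for TIMP3-/- against WT. Without WT UUO 2 alone, 2 were higher and 6 lower for TIMP3-/- against WT.

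**Figure D5:**
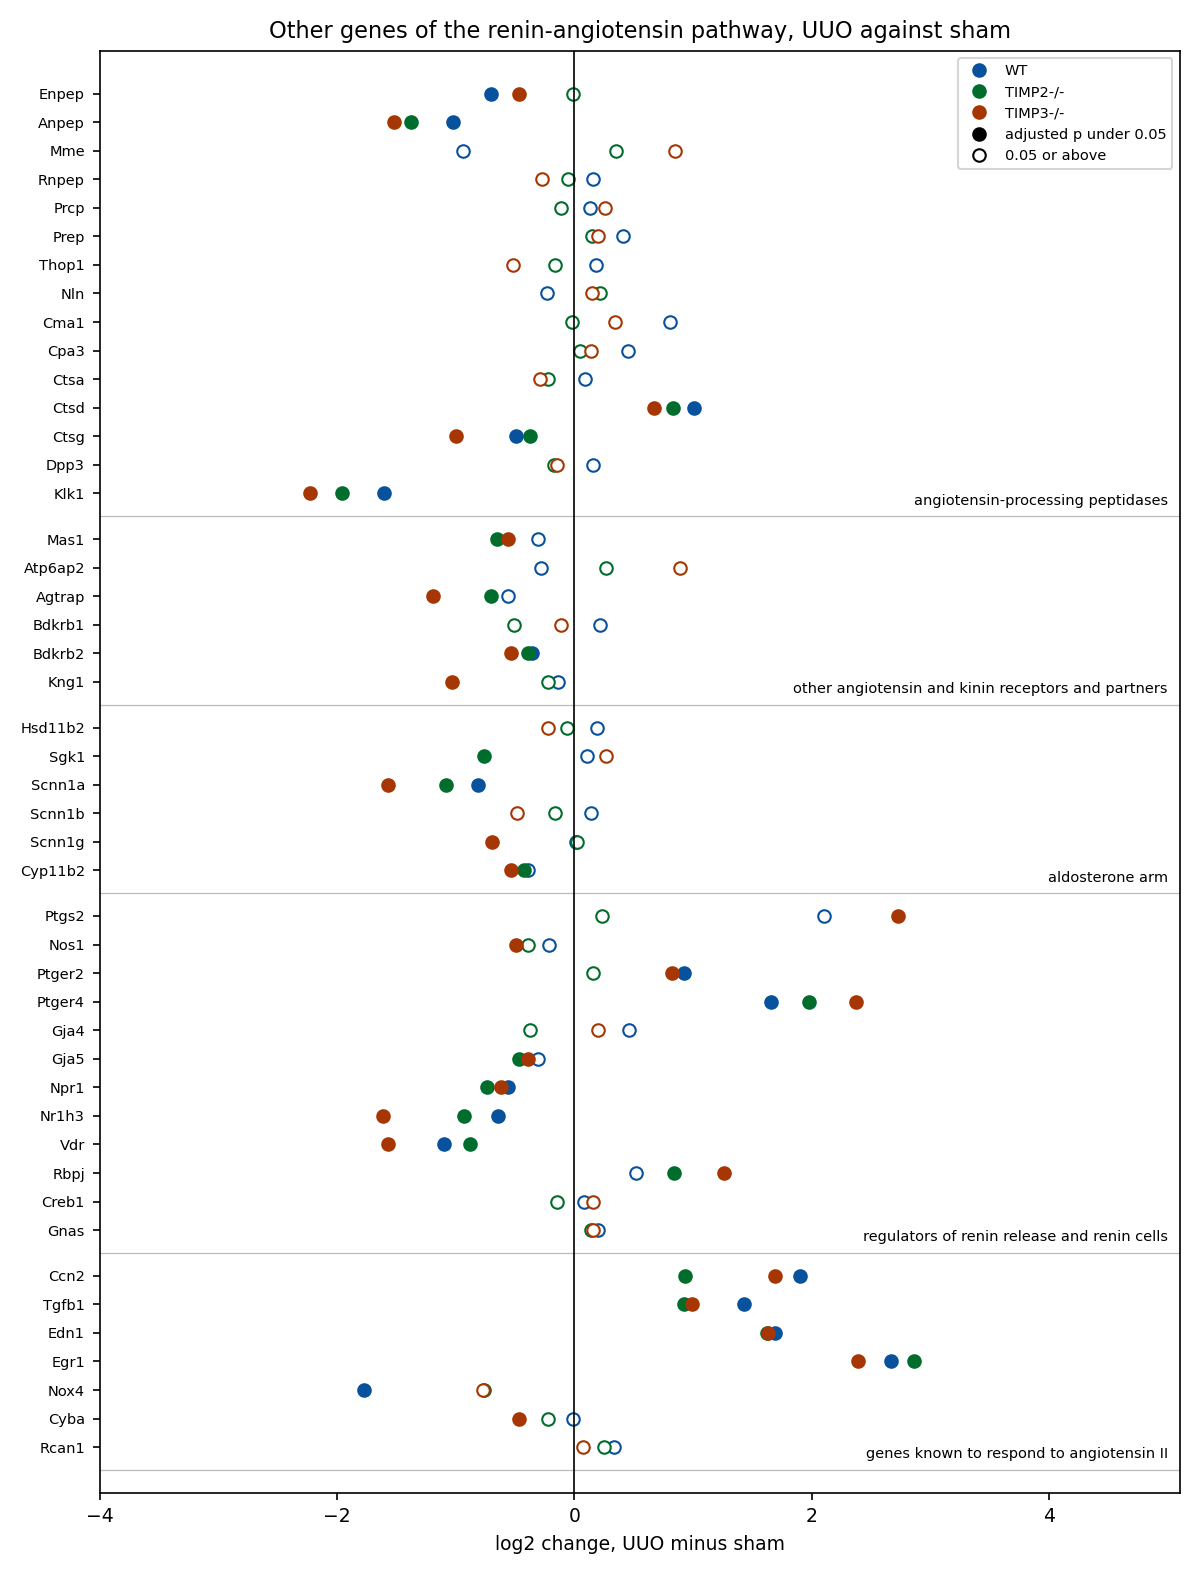
Log2 change in intensity, UUO minus sham, for the measured genes of the wider pathway lists in the 3 genotypes; filled points were called at adjusted p under 0.05 and open points were not. Egr1, Ccn2, Edn1 and Tgfb1 lie above 0 in every genotype, and Klk1, Anpep and Scnn1a below 0.

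The genes whose pattern over arrays was most like each member were ranked by Pearson r after the mean of the 9 sham and of the 9 UUO arrays was subtracted, among 10007 genes. For the brighter Ace probe set these were H2ac19, a histone (r = 0.968), Rdh5, a retinol dehydrogenase (0.968), and Pycrl (0.966); for the dimmer, Def8 (0.954), Degs2, a sphingolipid enzyme (0.952), and Slc5a11, an inositol transporter (0.951). For Agt they were Dusp14, a phosphatase, Cpn1, a subunit of the carboxypeptidase that inactivates kinins, and Syne4, a nuclear envelope protein, each at r = 0.955. These hold within sham arrays alone, where the r for Agt ranged from 0.914 to 0.945. For Agtr2 the highest were Sgms1 (0.812), Mastl (0.798) and Serpini1 (0.774), whose r over the 9 sham arrays was 0.056, 0.202 and -0.521, so the likeness came from the UUO arrays alone. All r are descriptions over arrays that share normalisation, and the genes were picked for a high r.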

How the data were processed

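The authors deposited 1 table of linear intensity values for all 18 arrays; RMA is named in the submitters' processing notes, and its version, the annotation build and the step to linear values are not given in the sources used here. Control probe sets (64 of 22690) were left out and intensities were taken to log2 without a pseudocount. Probe sets were named through the platform annotation, 691 with several symbols and 1555 with none staying unnamed. limma 3.58.1 in R 4.3.3 fitted 6 group means over 18 arrays and gave 95% intervals. Benjamini-Hochberg adjustment ran over 22626 probe sets in each of 12 comparisons. The number of arrays limits the precision. The p-values rest on a spread between arrays that is estimated jointly over the 6 groups and moderated across probe sets. A group with a wide spread, such as TIMP3-/- UUO for Agtr2 (SD 0.92 on the log2 scale), is thus tested with that shared estimate. Members and gene lists were chosen with earlier results of these data known. From each list, called genes are named by size of change, up to 4 per direction; for genes in several probe sets the brightest stands. The script was tested on simulated data. Alternatives were 1 probe set per gene, dim probe sets left out, a replicate block, a pseudocount of 16, median scaling, trended robust variance, only the arrays compared, and arrays left out.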

Additional observations from a re-analysis of the deposited data

How the results depend on the processing

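Of 720 alternative values for the 48 member results, 675 kept their direction and side of the threshold, 17 lost a call, 8 gained one and 20 changed sign; none of those 20 was called in the analysis of all 18 arrays or under the alternative. Without the 3 arrays in doubt the signs that turned were those of the brighter Ace probe set for TIMP2-/- against WT after UUO (-0.06) and TIMP3-/- against WT after sham (-0.04), and of Agtr2 for TIMP3-/- against TIMP2-/- after UUO (-0.2), TIMP2-/- against WT after sham (-0.03) and the response of TIMP3-/- minus TIMP2-/- (0 after rounding). With single arrays left out, these ranged, in the same order, from -0.06 to 0.33, -0.04 to 0.23, -0.2 to 0.72, -0.03 to 0.08 and 0 to 0.92. Agt for TIMP3-/- against TIMP2-/- after sham ranged from -0.07 to 0.19, and the responses of TIMP2-/- minus WT from -0.27 to 0.06 for Agt, -0.37 to 0.02 for the brighter and -0.31 to 0.11 for the dimmer Ace probe set. The fall of Ace on the brighter probe set kept its call under every alternative run, with adjusted p from 0.00023 to 0.0291 in WT, 0.00045 to 0.00621 in TIMP2-/- and 1.37e-05 to 0.00117 in TIMP3-/- kidneys.

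In a fit of only the arrays compared, the calls for the dimmer Ace probe set in WT (-0.78; adjusted p = 0.0614), Agt in TIMP3-/- (-0.74; 0.0678) and Agtr2 in TIMP3-/- kidneys (0.99; 0.088) were lost, and Agtr2 in TIMP2-/- kidneys was gained (0.53; 0.0144). Without the 3 arrays in doubt Agtr2 was lost in TIMP3-/- (0.53; 0.0562) and gained in TIMP2-/- kidneys (0.53; 0.0437). Leaving out 1 array at a time moved the dimmer Ace probe set in WT from -1.04 to -0.62, Agt in TIMP3-/- from -1.05 to -0.56 and Agtr2 in TIMP3-/- kidneys from 0.53 to 1.45. Other calls were gained without TIMP3-/- UUO 3: the brighter Ace probe set (-0.72; 0.0385) and Agtr2 (0.72; 0.0242) for TIMP3-/- against TIMP2-/- after UUO, and the Agt response of TIMP3-/- minus TIMP2-/- (-1.3; 0.041). The cause was not tested.

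Counts of called probe sets moved more. With 1 probe set per gene they were 4086, 4692 and 8001 for UUO against sham in WT, TIMP2-/- and TIMP3-/- (6971, 7922 and 14145 over all probe sets), 3 and 49 for TIMP2-/- and TIMP3-/- against WT after UUO (11 and 160), 1001 for TIMP3-/- against TIMP2-/- after UUO (1597), 1, 2 and 5 for TIMP2-/- against WT, TIMP3-/- against WT and TIMP3-/- against TIMP2-/- after sham (5, 10 and 17) and 1 for the response of TIMP3-/- minus TIMP2-/- (0). With only the arrays compared, the last 7 of these were 7, 5, 26, 2, 4, 11 and 27, and 1 for the response of TIMP2-/- minus WT. Without the 3 arrays in doubt they were 3852 in WT for UUO against sham, 812 and 975 for TIMP3-/- against WT and TIMP2-/- after UUO, and 3, 5 and 26 after sham. TIMP2-/- against WT after sham gave 2 with dim probe sets left out, and the response of TIMP3-/- minus TIMP2-/- gave 1 with a pseudocount of 16. Leaving out 1 array at a time gave 4405 to 7397, 4033 to 9630 and 11035 to 14853 for UUO against sham, 6 to 21, 35 to 2485 and 112 to 5577 between genotypes after UUO, 2 to 10, 5 to 6 and 9 to 17 after sham, and 0 to 3, 0 to 47 and 0 to 335 for the responses of TIMP2-/- minus WT, TIMP3-/- minus WT and TIMP3-/- minus TIMP2-/-.

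Same-numbered replicates were not clearly paired. Of 45 same-number pairs 24 correlated above 0.1 (median 0.129, range -0.579 to 0.67), against 38 of 90 different-number pairs (median -0.1, range -0.751 to 0.745). Of 18 arrays 8 correlated best with their own number. With a replicate block, 0 member results changed call, and the counts were 7541, 8524 and 14279 for UUO against sham in WT, TIMP2-/- and TIMP3-/-, 230 and 2184 for TIMP3-/- against WT and TIMP2-/- after UUO, and 1 for the TIMP3-/- minus TIMP2-/- response. Median scaling moved the median of all probe sets from -0.12 to -0.25 in WT, -0.12 to -0.27 in TIMP2-/- and -0.18 to -0.41 in TIMP3-/- kidneys after UUO. Agtr2 has no value where dim probe sets were left out, nor the dimmer Ace probe set with 1 probe set per gene.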
